A study of Mus musculus with 391 samples.

Results

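Complement is the set of plasma and cell-surface proteins that tags targets and calls in immune cells. Its 9 genes described here were chosen by name from the deposited count table of 56941 genes: the chains of C1q (C1qa, C1qb and C1qc), the later components C3 and C4b, the receptors C3ar1 and C5ar1, and the regulators Cd55 and Cd59a. All 9 were in the table. They were followed in 391 single cells from adult mouse brain, taken from fragments of blood vessels and read by Smart-seq2, which copies whole transcripts of a cell. The labels name 280 cells microglia, the resident macrophages of the brain, and 111 cells endothelial, the cells that line blood vessels. The deposited cell table codes the endothelial cells CP-EC and does not spell the code out, so which vessels they came from is not known here. They give no strain, genotype, treatment or animal, so each class was taken as 1 sample, cells were not treated as replicates and no test was made between groups.

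C1q binds antibody or dying material and starts the classical pathway. C4b and C2 then form the enzyme that cuts C3, and the fragments C3a and C5a act on the receptors C3ar1 and C5ar1 of myeloid cells. Cd55 takes the cutting enzymes apart on a cell's own surface, and Cd59a blocks the pore that ends the cascade. In the brain, C1q and C3 are known for marking synapses that microglia remove, and macrophages are the main source of C1q in many tissues.

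The microglia class held 47508014 gene reads and the endothelial class 21361227. A cell of the microglia class had a median of 146506 reads (39876 to 504875), and an endothelial cell 174345 (83954 to 602175). The column names gave 4 plates, called A to D here, of which A held 133 cells of the microglia class beside 7 endothelial cells, and B 147 beside 10. Plates C and D held 50 and 44 endothelial cells and no microglia-class cell. Levels are CPM, the reads of a gene over the gene reads of a group's pooled cells, times 1000000, and parentheses hold exact 95% intervals. The reads carry no molecular identifiers, so intervals cover counting error only. All 12 markers of a microglia list were at 100 CPM or more in the microglia class, but so were 10 of 12 of a list for border-associated macrophages, which sit on vessels and meninges. The name microglia therefore stands for the label, and the cells are called the microglia class. All 12 endothelium markers were at 100 CPM or more in the endothelial class.

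RefSeq places C1qb, C1qc and C1qa next to each other on chromosome 4. The stretches before the start of C1qb, of C1qc and of Cd59a are shown because the first pair had levels that ran together from cell to cell, and Cd59a was the only member higher in endothelial cells. The RefSeq promoter table held 7 of the 9 members, with no entry for C1qa or C4b. The sequences are those of its build, GRCm38.p6, each on the strand of its gene, while the reads were counted on GRCm39. Capitals mark GAGGAA, the core of many sites of PU.1, a macrophage transcription factor, or its reverse complement, and TGCTGA, which is found in sites of the MAF factors. The C1qb stretch is chr4:136886201-136886450, minus strand, the C1qc stretch is chr4:136893066-136893164, minus strand, cut to the bases outside annotated exons, and the Cd59a stretch is chr2:104095551-104095800, plus strand.
C1qb: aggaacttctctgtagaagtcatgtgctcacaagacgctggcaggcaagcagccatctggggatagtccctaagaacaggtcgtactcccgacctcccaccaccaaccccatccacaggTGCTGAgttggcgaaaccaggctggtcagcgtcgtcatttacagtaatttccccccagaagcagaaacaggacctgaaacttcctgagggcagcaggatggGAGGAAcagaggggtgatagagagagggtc
C1qc: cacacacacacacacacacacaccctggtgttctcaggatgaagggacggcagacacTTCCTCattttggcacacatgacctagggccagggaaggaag
Cd59a: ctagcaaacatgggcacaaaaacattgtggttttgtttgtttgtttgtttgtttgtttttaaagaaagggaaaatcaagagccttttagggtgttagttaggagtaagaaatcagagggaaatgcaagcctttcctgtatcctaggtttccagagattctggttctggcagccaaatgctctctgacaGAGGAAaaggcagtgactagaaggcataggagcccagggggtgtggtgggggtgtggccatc
GAGGAA was found on either strand in these 3 promoters of the 7, and in 23.3% of 32851 promoters of 250 bases. The letters stood 30 bases before the start in C1qb, 193 in C1qc on the opposite strand, and 62 in Cd59a. TGCTGA was in 5 of the 7 (C1qb, C3, C3ar1, C5ar1 and Cd55) and in 16.1% of all promoters. TATAAA, the letters of the TATA box, was in C3ar1, 235 bases before the start, and in 12.4% of all. GAGGAA thus stood before members of either class, and a match describes letters, not binding.

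Of the 9 members, 8 had a microglia-class level at least 4-fold above the endothelial one, on log2(CPM + 1), and 1, Cd59a, had the reverse. Over the 14989 genes at 1 CPM or more in either class, 19.9% passed this limit towards the microglia class and 11.7% towards the endothelial class. The 8 members fell into 3 patterns across cells: the C1q chains were read in all 280 cells, the receptors C3ar1 and C5ar1 were at 10 or more reads in 184 and 115 cells, and C4b, C3 and Cd55 in 43, 8 and 3 cells. Within plate A, 7 members passed towards the microglia class and 2 stayed under the limit, where 46.5% of genes passed towards that class and 10.9% towards the other. Within plate B, the 8 members at 1 CPM or more, all but Cd59a, passed towards the microglia class, against 48.4% of genes, with 11.5% passing the other way.

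**Figure D1:**
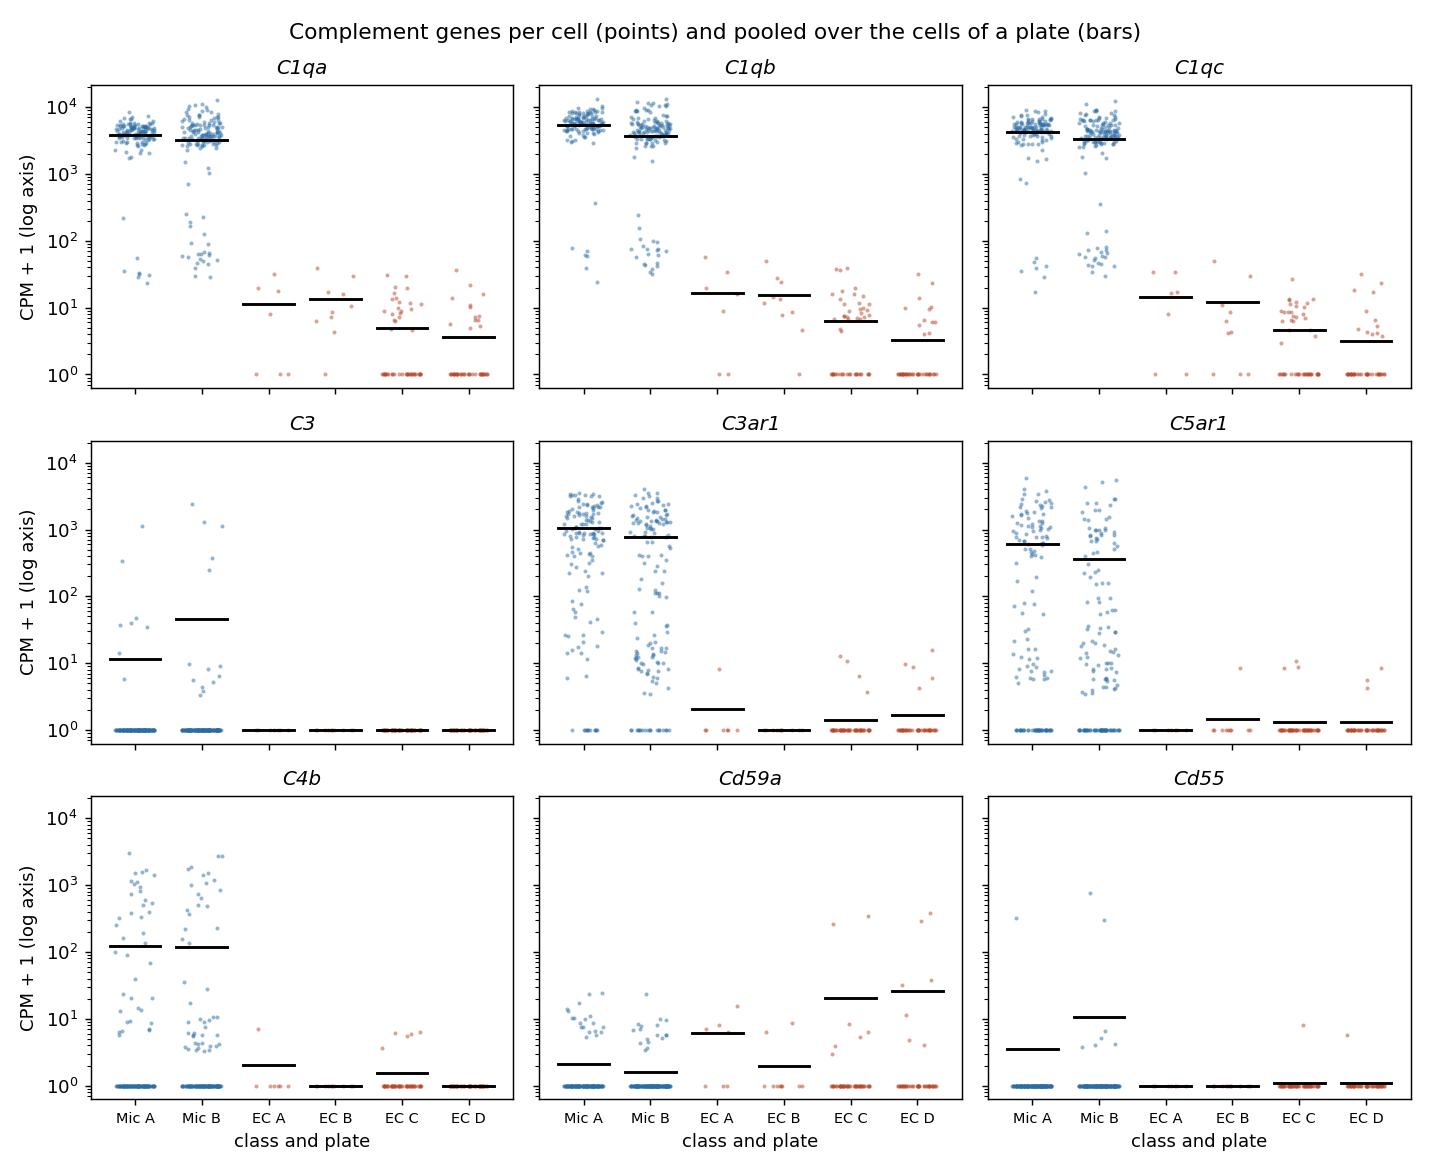
Level of the 9 complement genes in each cell (points, CPM + 1 on a log axis) and pooled over the cells of a plate (black bars), for the microglia class (Mic, blue) on plates A and B and the endothelial class (EC, red) on plates A to D. C1qa, C1qb and C1qc form a dense upper band and a sparse lower band of microglia-class cells on either plate; the 4 endothelial cells with 10 or more reads of Cd59a, at 258 to 385 CPM, lie on plates C and D.

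C1qa, which with C1qb and C1qc builds the C1q molecule, was at 3472 (3456 to 3489) CPM pooled over the microglia class, against 4.49 (3.64 to 5.49) for endothelial cells. Its lowest, median and highest microglia-class cells were at 22.4, 4016 and 12793 CPM. C1qb was at 4253 CPM against 5.48, with cells from 23.5 over 5118 to 13337 CPM, and C1qc at 3644 against 4.21, with cells from 16.3 over 4374 to 12370. No endothelial cell reached 10 reads of any chain, while 272, 275 and 269 of the 280 microglia-class cells did for C1qa, C1qb and C1qc, so few cells overlapped. The pooled level was 773-fold (633 to 954) higher for C1qa, 777-fold (648 to 939) for C1qb and 865-fold (704 to 1076) for C1qc. Within plates A and B, which held cells of either class, the ratios were smaller. On log2(CPM + 1) they were 8.40 and 7.94 for C1qa, 8.33 and 7.87 for C1qb, and 8.20 and 8.07 for C1qc. Over all plates they were 9.30, 9.36 and 9.45. Each chain was higher on plate A than on plate B in the microglia class, at 3855 against 3264 CPM for C1qa, 5350 against 3655 for C1qb and 4262 against 3306 for C1qc.

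The lowest values belonged to a separate set of cells. Summed over the 3 chains, 28 of 280 microglia-class cells (10%) lay below 2000 CPM and 252 above it, a limit set after the values were seen. Only 5 cells lay between 500 and 5000 CPM: the highest cells below the limit were at 558 and 1218 CPM, and the lowest above it at 2157, 4106 and 4171. The 28 cells, called C1q-low here, ran from 81.7 over a median of 160.0 to 1218 CPM, and the other 252, called C1q-high, from 2157 over 14578 to 38500. Endothelial cells reached at most 135 CPM, so their range met the lower end of the C1q-low cells. Of the C1q-low cells, 7 came from plate A and 21 from plate B. They were not shallow: their median was 214804.5 reads and 3610.5 genes, against 134350.5 reads and 2623.5 genes in C1q-high cells.

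Other members were also low in C1q-low cells. C5ar1, the receptor of C5a, was at 2.38 (1.36 to 3.87) CPM in them and 514 (507 to 521) in C1q-high cells. At 10 or more reads it was in 0 of 28 C1q-low cells (0 to 12.3%, Clopper-Pearson interval, as for all shares of cells) and in 115 of 252 C1q-high cells (45.6%, 39.4 to 52.0). C3ar1, the receptor of C3a, was at 66.2 against 999 CPM and reached 10 reads in 2 of 28 cells (7.14%, 0.877 to 23.5) against 182 of 252 (72.2%, 66.3 to 77.7), with 67.3% of its C1q-low reads in 1 cell, without which the level was 22.9 CPM. C4b was at 3 reads in C1q-low cells and at 138 CPM in C1q-high cells, where 43 cells had 10 or more reads (17.1%, 12.6 to 22.3). Within plate A, C3ar1 was at 4.91 CPM in the 7 C1q-low cells (6 reads) against 1131 CPM in the 126 C1q-high cells, and C5ar1 at 1.64 (2 reads) against 644.8. Within plate B, C3ar1 was at 79.8 CPM in the 21 C1q-low cells (27.2 without the strongest cell) against 918 in the 126 C1q-high cells, and C5ar1 at 2.55 against 434. C3 and Cd55 reached 10 reads in 8 and 3 of the C1q-high cells and in 0 C1q-low cells. For genes in so few cells, 0 of 28 (0 to 12.3%) does not set the groups apart. A single cell held 44.7% of the C3 reads of the microglia class, and a single cell 49.7% of the Cd55 reads. By pooled level, C4b, C3ar1 and C5ar1 were at least 4-fold higher in C1q-high cells, as were C3 and Cd55 with the limit just given. Of 14347 genes, 24.2% were higher in C1q-high and 8.85% in C1q-low cells. Cd59a was under 1 CPM in both.

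Of a wider complement list of 56 genes, 32 were at 1 CPM or more in either group. Of these, 18 were at least 4-fold higher in C1q-high cells, 1 in C1q-low cells and 13 lay between. The shares of all genes were the same 24.2% and 8.85%. The C1q chains, on which the groups were split, are among the 18 by construction. Without the members the counts were 10, 1 and 13 of 24. The 1 gene higher in C1q-low cells was Itgax, the alpha chain of complement receptor 4. It was at 346 against 32.5 CPM and at 10 reads in 14 against 8 cells. A few others were higher in C1q-low cells by less than 4-fold. Properdin, Cfp, which steadies the enzyme of the alternative pathway, stood at 523 CPM in them against 222 in C1q-high cells, and was at 10 or more reads in 14 of 28 (50%, 30.6 to 69.4) against 39 of 252 (15.5%, 11.2 to 20.5). Itgb2, the beta chain shared by complement receptors 3 and 4, was at 799 against 508 CPM.

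A list of 12 dendritic cell markers stood with low C1q. Its summed level ran from 549 over a median of 6368 to 11632 CPM in C1q-low cells and from 0 over 32.1 to 6417 in C1q-high cells, so the ranges overlapped. Among its genes, Cd209a, a lectin, was at 10 or more reads in 25 of 28 C1q-low and 20 of 252 C1q-high cells, Napsa, a protease, in 25 and 5, Itgb7, an integrin chain, in 20 and 3, and Flt3, a growth factor receptor of dendritic cells, in 12 and 3. Xcr1 and Ccr7 of that list had 0 reads in either group, and 10 of the 12 were at 1 CPM or more in C1q-low cells. The monocyte list was at 833 CPM against 228, with Ccr2 at 10 reads in 20 of 28 cells and Chil3, Hp and Vcan at 0 reads. Lists of microglia and of border-associated macrophages were lower in C1q-low cells, with cell medians of 1024 against 10631 CPM and 791 against 10221. No Sall1-carrying cell was among the C1q-low cells, while 15 carried Mrc1. Within cells that carried Mrc1, C3ar1 was at 1107 CPM in the 171 C1q-high and 85.3 in the 15 C1q-low cells (7.02 without 1 cell that held 92.6% of the reads), and C5ar1 at 597 against 1.06 (4 reads). There, 30.2% of 13827 genes were higher in the C1q-high and 9.73% in the C1q-low cells. The part of the dendritic cell and monocyte markers in these differences was not tested.

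**Figure D2:**
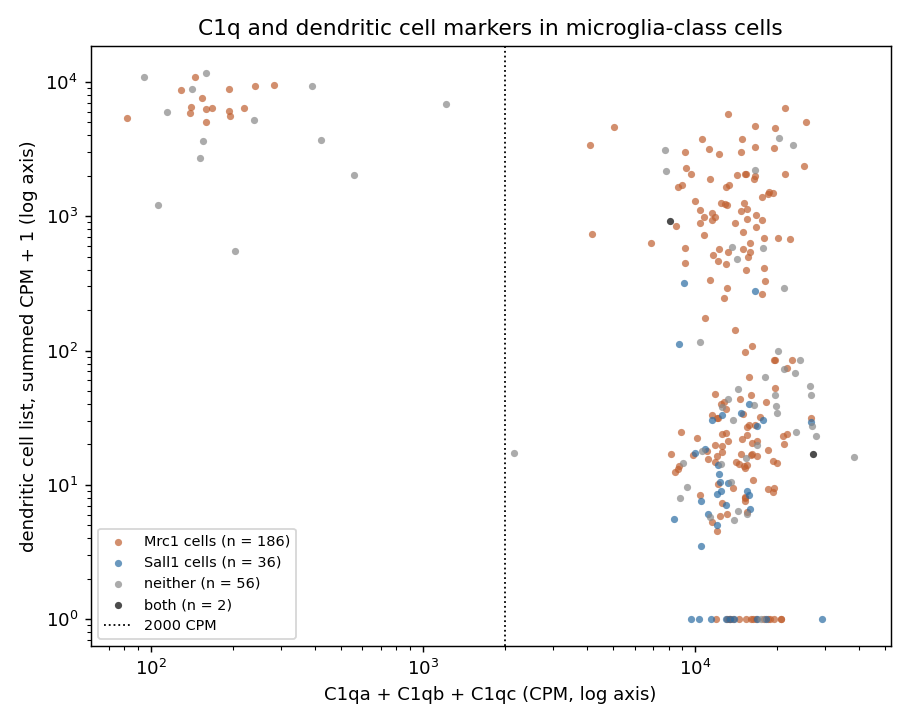
C1q level (sum of C1qa, C1qb and C1qc, CPM, log axis) against the summed level of 12 dendritic cell markers (CPM + 1, log axis) in each of the 280 microglia-class cells, coloured by which of Sall1 and Mrc1 reached 10 reads. The 28 cells left of the dotted line at 2000 CPM all lie at or above 549 CPM of the marker list; no Sall1 cell is among them.

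C1qa gave 30.5% (30.4 to 30.7) of C1q reads in the microglia class, C1qb 37.4% and C1qc 32.0%, and in C1q-high cells the median cell had 30.6%, 37.5% and 32.1%. Pooled shares moved by a few percentage points between plates: C1qa gave 28.6% (28.4 to 28.8) on plate A and 31.9% (31.8 to 32.1) on plate B, C1qb 39.7% and 35.7%, and C1qc 31.7% and 32.3%. Single C1q-high cells ranged widely, with a C1qa share from 2.40 to 47.4% and an SD of 6.23 percentage points. In C1q-low cells the pooled share of C1qa was 47.4% (44.9 to 49.8), but 1 cell held 55.4% of their C1qa reads, and the median cell with 20 or more C1q reads was at 32.2%. Over the 280 cells, levels of C1qb and C1qc ran together (Spearman rho of log2(CPM + 1), 0.72), as did C1qa with C1qc (0.71) and with C1qb (0.68). In the 252 C1q-high cells the rhos were 0.62, 0.60 and 0.56. On plate A of all microglia-class cells they were 0.60, 0.57 and 0.45, and on plate B 0.81, 0.82 and 0.85. The cells share library preparation and depth, and the level of each chain ran against the gene reads of the cell (rho -0.67 for C1qb, -0.60 for C1qc and -0.48 for C1qa).

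In endothelial cells the C1q chains were present at a trace. Of 111 cells, 74 had a C1q read, and the 303 reads gave 14.2 (12.6 to 15.9) CPM. The level was 39.5 (27.9 to 54.2) and 38.2 (30.3 to 47.5) CPM on plates A and B, which held microglia-class cells, and 12.8 (10.7 to 15.3) and 7.06 (5.41 to 9.05) on plates C and D, which did not. On plates A and B each chain was at 0.270 to 0.400% of its level in the microglia class of the same plate. Csf1r, a macrophage receptor, was at 0.177 and 0.213% there, C3ar1 at 0.0991 and 0%, and C5ar1 at 0 and 0.132%, while Plvap, an endothelial gene, was at 0.0191 and 0.0248% in the opposite direction. The receptor values are uncertain. Endothelial C3ar1 on plate A (1.04 CPM) and C5ar1 on plate B (0.471 CPM) lay below a floor of 3 reads (3.12 and 1.41 CPM). The chains made up 31.7% (26.5 to 37.2), 38.6% (33.1 to 44.4) and 29.7% (24.6 to 35.2) of the endothelial C1q reads, with each interval holding the share of the microglia class. Whether these reads were made in the endothelial cells was not tested.

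**Figure D3:**
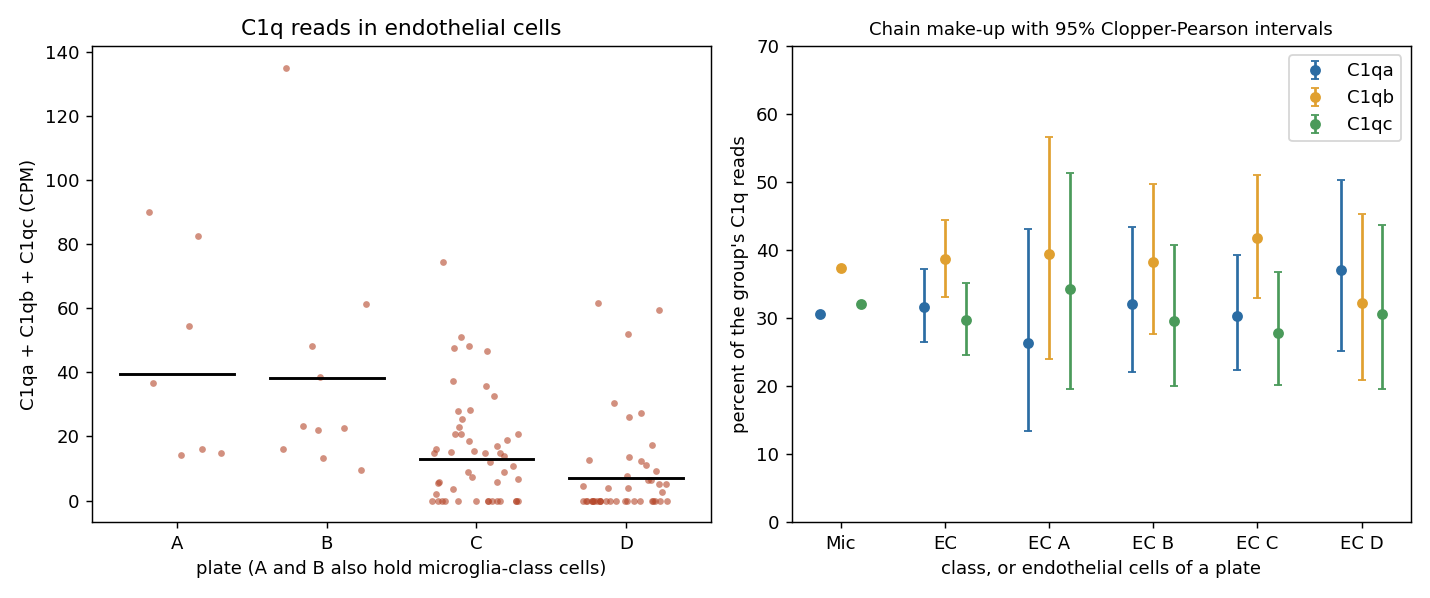
C1q level in each endothelial cell by plate (left; points are cells, bars pooled CPM) and the percent of C1q reads from each chain (right; pooled, with 95% Clopper-Pearson intervals) in the microglia class (Mic), the endothelial class (EC) and its plates. Endothelial cells of plates A and B sit at 39.5 and 38.2 CPM, above the 12.8 and 7.06 of plates C and D, and every interval of a chain in the endothelial class holds its share in the microglia class.

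C3, the component on which all pathways meet, was at 33.2 (31.6 to 34.9) CPM in the microglia class, while the endothelial class had no read of it. Against a floor of 3 reads over the class the pooled level was 237-fold higher, which is no lower bound for single plates or cells. Its reads came from few cells. Of 280 cells, 22 had a C3 read, 14 of them 1 to 9 reads and 8 of them 10 or more, and these 8 ran from 45.9 over 749 to 2376 CPM. A single cell of plate B held 44.7% of the reads, and without it the level was 18.5 CPM. Plate A was at 10.4 CPM and plate B at 45.6, or 5.39 and 22.9 without the strongest cell of each. The floor of 3 endothelial reads was 3.12 CPM on plate A and 1.41 on plate B. Of the 8 cells, 5 carried Mrc1, 1 carried Sall1 and 2 carried neither.

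C4b, which joins C2 in the enzyme that cuts C3, was at 119 (116 to 122) CPM in the microglia class against 0.281 (6 endothelial reads), 423-fold (194 to 1152) higher. It was read in 88 of 280 cells and at 10 or more reads in 43, which ran from 66.3 over 724 to 2989 CPM. The 28 cells with most reads held 90.0% of them. The plates were alike, at 121 and 118 CPM. C4b has a close copy, C4a, which had 3 microglia-class reads and 1 endothelial read. How reads were divided between copies is not known here, so values of C4b are uncertain to that extent. C2, its partner, was at 40.8 CPM and reached 10 reads in 30 cells, of which 10 also had 10 reads of C4b. C3 and C4b were at 10 reads together in 1 cell.

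**Figure D4:**
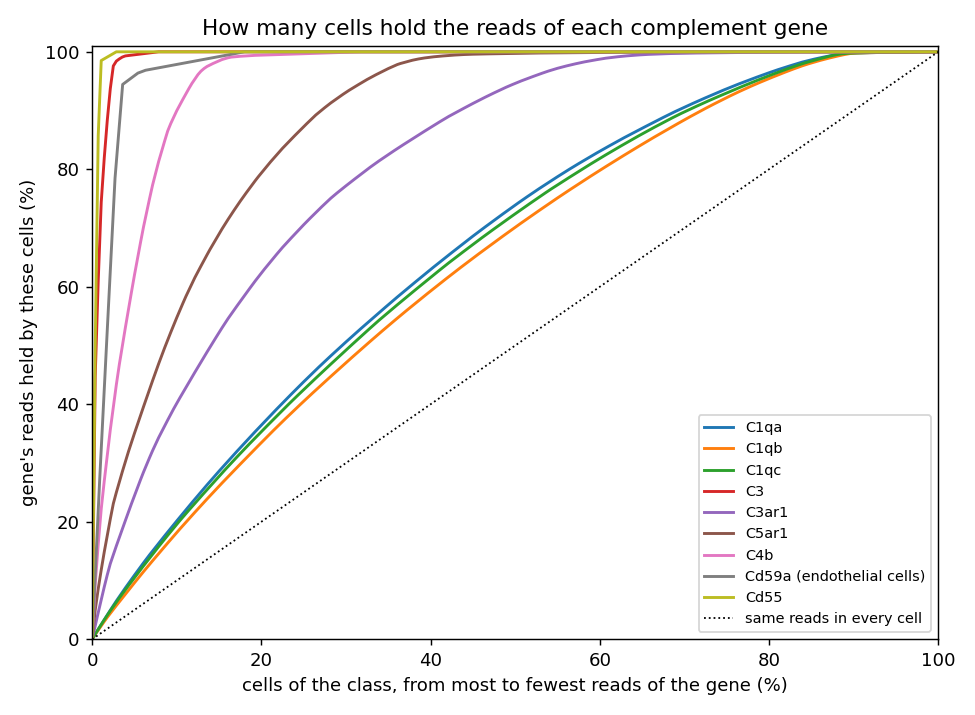
Share of a gene's reads held by the cells with most of its reads, for 8 members in the 280 microglia-class cells and Cd59a in the 111 endothelial cells; the dotted line is equal reads in every cell. The 10% of cells with most reads hold 18.2 to 20.1% of the C1q chains, 40.2% of C3ar1, 54.8% of C5ar1, 90.0% of C4b and 100% of C3 and Cd55.

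C3ar1 stood at 868 (859 to 876) CPM in the microglia class, with cells from 0 over 670 to 4019, against 0.515 (0.257 to 0.921; 11 endothelial reads), a ratio of 1685-fold (941 to 3375). C5ar1 stood at 442 (436 to 448) CPM, with cells from 0 over 15.4 to 5961, against 0.328 (7 reads), 1349-fold (655 to 3356). Neither gene was at 10 reads in an endothelial cell. At 10 reads, 93 microglia-class cells had both, 91 of C3ar1 alone, 22 of C5ar1 alone and 74 of neither. The 93 cells are 80.9% of the C5ar1 cells and 50.5% of the C3ar1 cells. C3ar1 was at 10 reads in 65.7% of all 280 cells and in 72.2% of the C1q-high cells, which held all 115 C5ar1 cells. Across the 280 cells their levels were weakly related (rho 0.30, 0.31 on plate A and 0.23 on plate B, and 0.22 over the C1q-high cells). Plate A was higher for either receptor, at 1049 against 768 CPM for C3ar1 and 598 against 357 for C5ar1. C5ar2, which binds C5a without the usual signalling, was at 26.9 CPM and at 10 reads in 10 cells, 4 of which had 10 reads of C5ar1.

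The regulators went opposite ways, each in few cells. Cd55 was at 7.07 (6.34 to 7.87) CPM in the microglia class against 0.0936 (2 reads), 75.5-fold (20.7 to 626) higher. It rested on 3 cells of 301, 320 and 766 CPM, all of which carried Mrc1, and 1 of them held 49.7% of the reads, without which the level was 3.57 CPM. On plate A, 1 cell held all 43 reads and the log2 ratio was 1.83, under the 4-fold limit. Cd59a was at 19.4 (17.6 to 21.3) CPM over the endothelial cells, 24.9-fold (17.8 to 35.8) above the 0.779 (0.548 to 1.07) of the microglia class. In the microglia class it was read in 36 cells at no more than 2 reads. Among endothelial cells 20 had a read and 4 had 10 or more, from 258 to 385 CPM, and the 11 cells with most reads held 97.8%. These 4 cells came from plates C and D, where the level was 19.5 and 25.3 CPM. On plates A and B it was 5.20 and 0.943 CPM (5 and 2 reads), with log2 ratios of -1.54 and -0.29, so Cd59a passed the limit only with plates C and D. The copies Cd55b and Cd59b had no read, and the division of reads between copies, or between Cd55 and the neighbouring antisense gene Cd55os, is uncertain.

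Per kilobase of exon, the members ranked in the microglia class as C1qb (3909 CPM per kb), C1qa (3339), C1qc (1887), C3ar1 (202), C5ar1 (172), C4b (20.8), C3 (6.46), Cd55 (1.46) and Cd59a (0.430). On the plates, C1qb ran from 3360 to 4917 and C1qa from 3138 to 3707 CPM per kb, so these neighbours overlapped, and so did C3ar1 (178 to 244) and C5ar1 (139 to 233). The other neighbours in this order did not overlap between plates, except Cd55 (0.528 to 1.96) with Cd59a (0.323 to 0.626). C3 (2.03 to 8.87) lay only just above Cd55, and on plate A 1 cell held 48.6% of the C3 reads. In endothelial cells Cd59a was at 10.7 CPM per kb and Clu, clusterin, an inhibitor of the terminal pore, at 164, the highest of the list.

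Of the 56 genes of the wider complement list, 35 were at 1 CPM or more in a class and 12 had no read in either. Of the 35, 19 passed the limit towards the microglia class, 4 towards endothelial cells and 12 lay between, with a median log2 ratio of 2.87 where all genes had 0.36. Over all genes 19.9% passed towards the microglia class and 11.7% towards endothelial cells, and the 4 of 35 are near the latter share. Without the members the counts were 11, 3 and 12 of 26, and the median log2 ratio was 1.30. Itgb2 (549 against 3.42 CPM) and Cfp (264 against 0.281) were high in the microglia class. Clu, at 565 (10 or more reads in 62 of 111 cells) against 13.4 CPM, was on the endothelial side. The other genes on that side besides Cd59a rested on few cells: 1 cell held 97.8% of the reads of C1s1, a protease of the C1 complex (6.37 against 0.526 CPM), and 1 cell 79.9% of those of Cd46, a cofactor for cutting C3b (10.5 against 1.70). With each gene taken without its strongest cell, 2 genes instead of 4 passed towards endothelial cells and 18 towards the microglia class, of 29. Within plate A the counts were 23 and 1 of 32, beside 46.5% and 10.9% of all genes, and within plate B 21 and 2 of 28, beside 48.4% and 11.5%. Genes between the classes included Cr1l, a regulator of C3 (108 against 160 CPM), C1qbp, a mitochondrial protein that binds C1q (127 against 80.7), and Cd93, a surface lectin once described as a C1q receptor (78.1 against 222).

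Within the microglia class, cells were set apart by 10 reads of Sall1, a transcription factor of microglia, or of Mrc1, the mannose receptor of border-associated macrophages. By this limit 36 cells were Sall1 cells, 186 Mrc1 cells, 56 neither and 2 both. Near the limit, 3 cells had 5 to 9 reads of Sall1 and 2 had 10 to 20, and 7 and 5 cells did so for Mrc1. C1q levels differed little, in an order that turned round under some alternatives: C1qa was at 3610 CPM in Sall1 cells and 3548 in Mrc1 cells, C1qb at 4657 and 4306, and C1qc at 3914 and 3734. Of 8 members at 1 CPM or more, 2 were at least 4-fold higher in Mrc1 cells (C4b and Cd55), 0 in Sall1 cells and 6 lay between. Over 13952 genes 22.7% were higher in Mrc1 and 7.55% in Sall1 cells. Within plate A, 3 members (C4b, C5ar1 and Cd55) were higher in Mrc1 cells and 6 lay between, against 27.7% of genes, with 8.37% higher in Sall1 cells. Within plate B, 3 members (C4b, C3 and Cd55) were higher in Mrc1 cells and 5 lay between, against 33.3% of genes, with 10.2% higher in Sall1 cells.

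C4b was at 165 (161 to 170) CPM in Mrc1 cells and 7.06 (5.24 to 9.31) in Sall1 cells, 23.4-fold (17.7 to 31.6) higher, and reached 10 reads in 36 of 186 against 1 of 36 cells. That 1 Sall1 cell held 84% of the 50 reads, and without it the ratio was 144-fold. With Ms4a7 (82 cells) and P2ry12 (62 cells) as markers in place of Mrc1 and Sall1, C4b was at 212 against 79.2 CPM, under the 4-fold limit. On the plates C4b stood at 163 against 0.833 CPM (2 reads) on A and 166 against 10.3 on B. C3ar1 was at 983 against 399 CPM, 2.46-fold (2.37 to 2.56), and reached 10 reads in 72.0% (65.0 to 78.4) of Mrc1 and 52.8% (35.5 to 69.6) of Sall1 cells. By Ms4a7 and P2ry12 it was at 901 against 760 CPM. C5ar1 was at 525 against 211 CPM, 2.48-fold (2.36 to 2.62), with 49.5% (42.1 to 56.9) against 22.2% (10.1 to 39.2) of cells. By Ms4a7 and P2ry12 the C5ar1 levels lay further apart, at 786 against 215 CPM. The C5ar1 gap was wider on plate A (705 against 149 CPM) than on plate B (414 against 243). C3 was at 17.4 against 8.90 CPM, and 1 Sall1 cell held 61 of the 63 reads, and the order turned round on plate A (9.12 against 25.4 CPM). The cells with neither marker had the highest C3 level, 111 CPM, through 2 cells.

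Of 31 list genes at 1 CPM or more, 12 were higher in Mrc1 cells, 3 in Sall1 cells and 16 lay between, with a median log2 ratio of 1.67 where all genes had 0.53. Over all genes 22.7% were higher in Mrc1 and 7.55% in Sall1 cells, and the 3 of 31 are near the latter share. Without the strongest cell of each gene the counts were 9 and 3 of 28. Higher in Mrc1 cells were Cfp (347 against 1.13 CPM), Fcna, a ficolin of the lectin pathway (109 against 2 reads), Colec12, a collectin scavenger receptor (107 against 0.565), Cd93 (117 against 0.988) and C2 (57.3 against 0.706). None of these genes reached 10 reads in any Sall1 cell. Cfp in Mrc1 cells was at 744 CPM in the 15 C1q-low and 292 in the 171 C1q-high cells. Higher in Sall1 cells were C5ar2 (82.6 against 3.40 CPM), Itgam, the alpha chain of complement receptor 3 (288 against 35.5), and Csmd3, a membrane protein with complement control repeats (186 against 0.321). At 10 reads Itgam was in 20 of 36 Sall1 cells and 27 of 186 Mrc1 cells, C5ar2 in 5 and 2, and Csmd3 in 7 and 0. Within Sall1 cells 1 cell held 49.4% of the C5ar2 reads and 1 cell 47.0% of the Csmd3 reads, and without them the levels were 43.1 and 104 CPM.

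**Figure D5:**
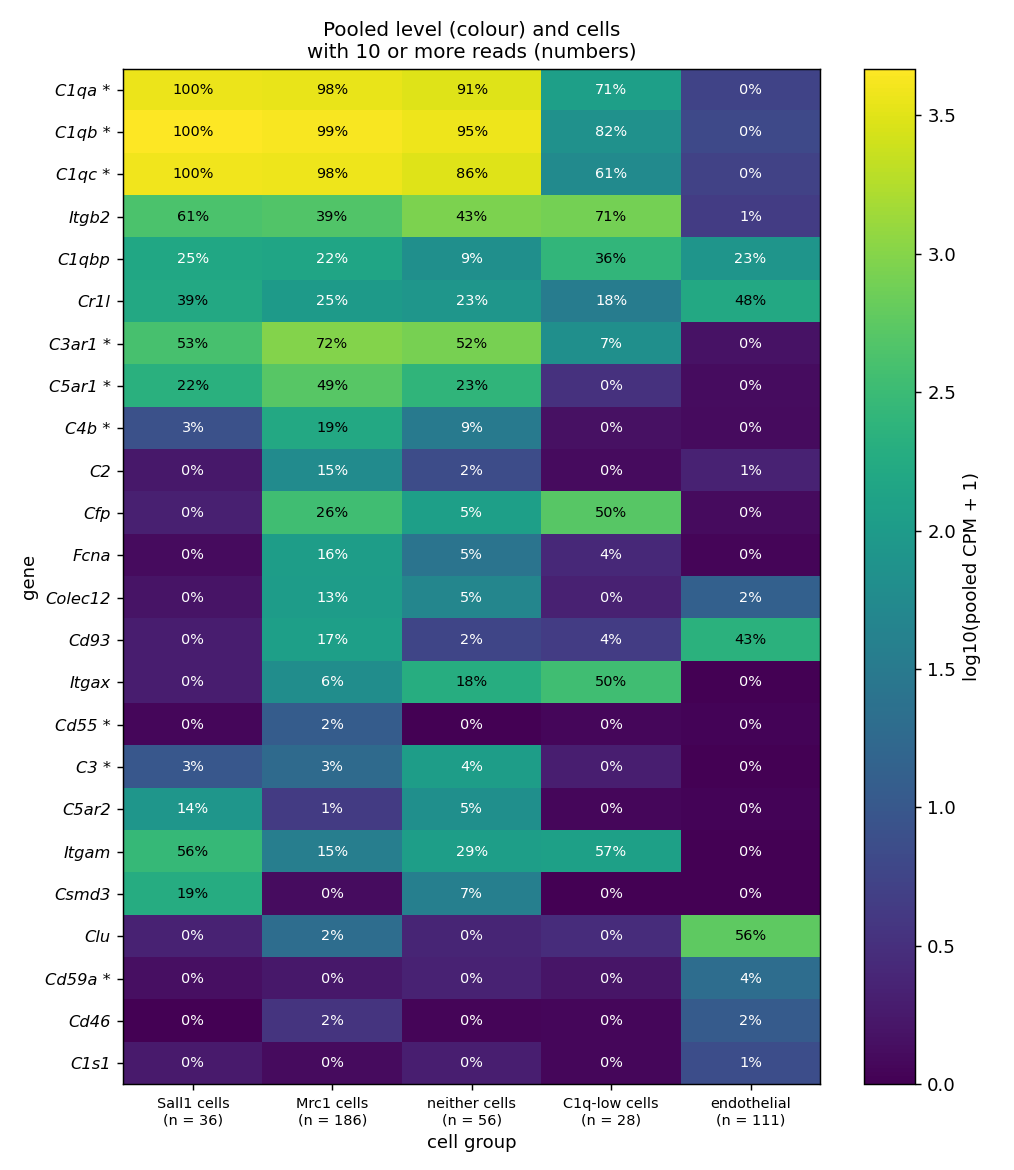
Pooled level (colour, log10(CPM + 1)) and percent of cells with 10 or more reads (numbers) of the 9 members (asterisks) and 15 other complement genes in Sall1, Mrc1 and neither cells of the microglia class, in the C1q-low cells and in endothelial cells. The 28 C1q-low cells are also counted among the Mrc1 cells (15) and the neither cells (13). The C1q chains are bright in the first 3 columns; C4b, C2, Cfp, Fcna, Colec12 and Cd93 are brighter in Mrc1 than in Sall1 cells, and C5ar2, Itgam and Csmd3 the reverse.

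The genes most like each member were taken over the 280 cells from 1050 genes read in at least 50% of them. After the other chains, C1qa and C1qc were nearest to Apoe, a lipid carrier (rho 0.52 and 0.64), and C1qb to Rn18s-rs5, a ribosomal RNA gene (0.66). Over the 252 C1q-high cells, Cst3, a protease inhibitor, took the place of Apoe for C1qa (0.45), and Rn18s-rs5 took it for C1qc (0.57) and stood above C1qc for C1qb (0.66 against 0.62). C3ar1 was nearest to Serinc3, a membrane protein (0.33), and Ms4a7 (0.30), and C5ar1 to Ms4a7, a macrophage membrane protein (0.34), and Apoe (0.33). C4b was nearest to the border-associated macrophage genes Stab1 (0.28), F13a1 (0.22) and Mrc1 (0.22). Over the C1q-high cells these neighbours mostly changed: C3ar1 was nearest to Cybb (0.24), Lilrb4b (0.23) and Scpep1 (0.23), C5ar1 to Wfdc17 (0.29), Ms4a7 (0.28) and Lilrb4a (0.26), and C4b to Stab1 (0.25), Flcn (0.22) and Fcgr2b (0.22). The receptors and C4b had no relation above 0.34, and in counts with many zeros such values describe little.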

How the data were processed

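Raw gene counts, whole numbers as the authors deposited them, were the starting values. Tools named in the submitters' processing notes are featureCounts, Subread 1.4.6-p5 and SAMtools 1.16.1, and the build is GRCm39. Aligner, annotation, strand use and handling of multiply mapped reads: not given in the sources used here. Columns were matched to a class through the deposited cell table, 0 count columns were left over and 0 were identical. No cell filter or doublet caller was applied. CPM use a group's summed gene reads, with exact Poisson intervals. Ratios have exact conditional binomial intervals at 95%. Calls need 4-fold on log2(CPM + 1) and 1 CPM in either group, and the pseudocount understates ratios of low genes. A group at 0 was set to 3 reads. Exon lengths and exon-free promoter bases come from GENCODE M21, an older build. Named genes were the members, the 14 most abundant other list genes, copies of members and list genes higher in endothelial cells, of which 1 is not reported here. The 3 genes most alike had the highest Spearman rho, without mitochondrial, ribosomal protein and predicted genes, for members read in at least 25% of a class. They are given for the microglia class. Members, lists, Sall1 and Mrc1 were chosen with earlier results of these data known. The C1q limit, and the dendritic and monocyte genes, Csf1r and Plvap as examples, were chosen after values were seen. The ratio intervals and the 4-fold call were tested on simulated pooled counts, which held no single cells or plates. Alternatives covered plate, cell weights, totals, pseudocount, minimum, marker limits, thinning and edgeR 4.0.16 TMM factors (R 4.3.3). Python 3.11.15, numpy 2.4.6, scipy 1.17.1 and pandas 2.3.3 were used.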

Additional observations from a re-analysis of the deposited data

How the results depend on the processing

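No paired analysis was possible because no label gives cells of the classes a shared replicate number and each class is 1 sample. Of 90 alternatives to the class ratios of the members, 86 kept the direction and the side of the 4-fold limit. Of 72 alternatives to the Mrc1 over Sall1 ratios, 68 kept the side of the limit, but 12 of these, on ratios of C1qa, C1qb, C1qc and C3 under the limit, changed sign. Among the exceptions, the log2 ratio of Cd59a was -1.54 on plate A and -0.29 on plate B, that of Cd55 1.83 on plate A and 1.24 with a pseudocount of 5 CPM, and that of C4b between cells marked by Ms4a7 (82 cells) and P2ry12 (62 cells) 1.41. C5ar1 reached 2.24 on plate A and C3 4.04 on plate B, while C3 turned to -2.82 at 5 reads of the marker. At that limit there were 37 Sall1 cells in place of 36. Their C3 level was 105 CPM in place of 8.90, against 14.0 in the Mrc1 cells. A single plate B cell held 705 of the 1578 C3 reads of the microglia class. At 10 reads this cell carried neither marker. The strongest Mrc1 and Sall1 cells held 212 and 61 C3 reads, and no cell with both markers reached 10. The C3 level of the 37 Sall1 cells is reached only with its reads, so at 5 reads of the marker it was 1 of them. The causes of the other shifts were not tested. The count of list genes higher in endothelial cells was 2 with a pseudocount of 5 CPM, 1 on plate A, 2 on plate B and 2 without each gene's strongest cell. Leaving out the C1q-low cells, an alternative chosen after seeing the data like the strongest-cell and plates C and D ones, changed no call of a member. It gave rhos of 0.56 for C1qa with C1qb, 0.60 for C1qa with C1qc and 0.62 for C1qb with C1qc. Within the plates these rhos were 0.45 and 0.85, 0.57 and 0.82, and 0.60 on plate A for C1qb with C1qc. Shares of cells with a read were lower at lower depth. With every cell thinned to 39000 reads the microglia-class shares were 98.6% for C1qb, 98.6% for C1qc, 4.29% for C3, 76.8% for C3ar1, 56.8% for C5ar1 and 21.1% for C4b, and 9.01% of endothelial cells had Cd59a. Without thinning they were 100%, 100%, 7.86%, 89.6%, 68.2%, 31.4% and 18.0%. The thinned shares of C1qa, C1qb and C1qc in endothelial cells were 15.3, 24.3 and 12.6%.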
